A study of Mus musculus with 5 samples.

Results

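The interferon-inducible antiviral effectors described here are 7 mouse genes, Ifit1, Rsad2, Oasl2, Oas1a, Eif2ak2, Ifi204 and Ifi35. They were taken by name, as every probe with a single gene symbol in the array's annotation that, once looked up in RefSeq, is one of these. That gave 12 of 19828 probes, all with a value on every array, and 7 of the 8452 named genes that were measured on all 5 arrays. Oas1a and Ifi204 had 1 probe each and the other genes had 2. The cells were macrophages grown from the bone marrow of C3H/HeJ mice with human CSF-1. A mutation in Tlr4, the receptor for lipopolysaccharide (LPS), makes this strain respond poorly to it. The macrophages were left unexposed (0 h) or exposed to 10 µg per ml of Salmonella minnesota LPS for 0.5, 2, 7 or 21 h. Each group was 1 two-colour cDNA array, hybridised against RNA of whole C57BL6/J embryos of 17.5 days. No group has a replicate, so no difference was tested. The only error shown is the SD over a gene's probes, which holds no spread between cultures or hybridisations.

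Interferons are secreted proteins that act through their receptors and the JAK kinases to activate STAT and IRF transcription factors, which switch on a large set of antiviral genes. Macrophages exposed to LPS normally make type I interferon through Tlr4 and its adaptors, and antiviral effector genes then follow. Some of these proteins bind viral RNA or DNA, others block translation or viral replication, and many are also present at a basal level in resting macrophages.

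Values are log ratios, read as base 10 and, as the likely direction, macrophage over embryo. They were centred so that the median gene of each array is 0, and they compare 2 RNAs for 1 gene, so they are not abundances. The numerator is not stated in the labels. It was taken from macrophage markers, of which 7 of 15 were measured with medians from 0.64 (0.5 h) to 1.22 (2 h) on the 5 arrays, and from 10 embryo markers, all measured, with medians between -1.63 (2 h) and -0.90 (0.5 h). Among the macrophage markers, Cd68 was at -0.16 and Tyrobp at -0.05 at 0 h. Neutrophil markers, 6 of 7 measured, had medians between -0.15 (2 h) and -0.06 (7 h), and the 1 measured B cell marker, Cd79b, was at -0.47 at 0 h. T and NK cell markers, 3 of 6 measured, had a median of -0.04 at 0 h, and the 5 fibroblast markers, all measured, -0.52. Of the dendritic cell markers Ccr7 (0.01 at 0 h) and Fscn1 (-0.38 at 0 h) were measured. Fewer cells of a type and less RNA per cell cannot be told apart in such samples. Base 10 is an assumption, and on it a 2-fold difference is 0.301, which was used as the size rule.

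The promoters are shown because most of those matched share letters that are known to bind interferon-activated factors. In the RefSeq promoter table of GRCm38.p6, which runs from 250 bases before to 50 after each gene start, 6 of the 7 genes had an entry; Ifi204 is named only. The core of the interferon-stimulated response element, which is GAAA, then any 2 bases, then GAAA, was searched on both strands. It was found in 4 of the 6 windows, those of Ifit1, Rsad2, Oas1a and Eif2ak2. Of all 32851 windows of the same length 3.44% hold it, as do 3.71% of the 6813 array genes with a window. Windows of up to 40 bases either side of the matches follow, 5′ to 3′ on the gene's strand, with at most 29 bases after the gene's start base and the matched letters in capitals.
Ifit1 (GRCm38.p6, chr19:34640745-34640853, + strand): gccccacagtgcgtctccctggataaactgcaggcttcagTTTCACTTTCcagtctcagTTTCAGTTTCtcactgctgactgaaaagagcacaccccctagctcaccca
Rsad2 (GRCm38.p6, chr12:26456523-26456612, - strand): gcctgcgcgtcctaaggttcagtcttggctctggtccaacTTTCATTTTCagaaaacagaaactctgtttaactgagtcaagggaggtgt
Oas1a (GRCm38.p6, chr5:120907496-120907585, - strand): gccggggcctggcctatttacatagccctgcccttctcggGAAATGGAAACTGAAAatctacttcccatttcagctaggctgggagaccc
Eif2ak2 (GRCm38.p6, chr17:78882543-78882594, - strand): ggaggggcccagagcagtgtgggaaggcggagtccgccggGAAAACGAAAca

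Ifit1 held 2 matches, which begin 104 and 85 bases before the gene start, both read on the opposite strand. The single match of Rsad2, also on the opposite strand, begins 120 bases before the start. Oas1a held 2 matches on the gene's own strand, 20 and 14 bases before the start, which overlap each other and form the capital run above. The match of Eif2ak2 lies 18 bases after its start. Letters of the gamma-activated site, TTC, then any 3 bases, then GAA, a pattern that reads the same on both strands, were searched after the data had been seen. They were in 3 of the 6 windows, those of Oas1a, Eif2ak2 and Ifi35, and in 8.30% of all windows. The Oasl2 window held neither run of letters. A match is a run of letters and not a measured binding site.

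**Figure D1:**
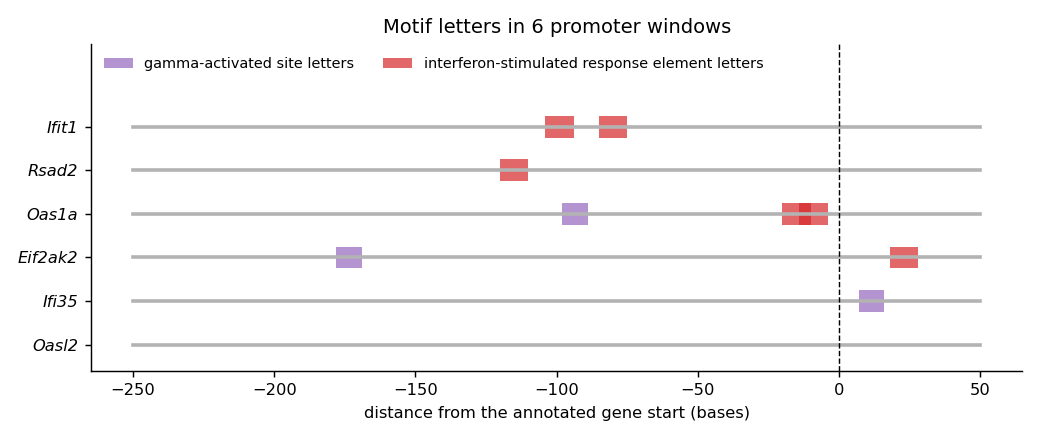
Positions of interferon-stimulated response element letters and gamma-activated site letters in the promoter windows of 6 antiviral effector genes, in bases from the annotated gene start (dashed line). The response element letters lie in 4 windows, before the start in Ifit1, Rsad2 and Oas1a and 18 bases after it in Eif2ak2.

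Against the embryo, the 7 genes stood on the macrophage side before any LPS. At 0 h all 7 were at least 2-fold over embryo, beside 8.99% of all genes, with centred log ratios from 0.33 (Ifi35) to 1.16 (Oasl2) and a median of 0.81, which is 6.44-fold on base 10. Read as base 2, the same array would have 3 of the 7 past 2-fold, beside 0.248% of all genes. Of the 8452 genes, Oasl2 had the 9th highest ratio at 0 h, Ifi204 the 15th and Rsad2 the 20th. Were the ratio the other way round, all 7 would be at least 2-fold under embryo, beside the same 8.99%, these ranks would count from the lowest ratio, and higher and lower would change places throughout. The median of the 7 was 0.51, 0.91, 0.91 and 0.63 at 0.5, 2, 7 and 21 h. Past 2-fold over embryo were 5 of the 7 at 0.5 h, beside 23.4% of all genes, all 7 at 2 h, beside 13.4%, 6 at 7 h, beside 12.6%, and 6 at 21 h, beside 9.67%. Without the 0.5 h array, 6 of the 7 were past 2-fold on every one of the 0, 2, 7 and 21 h arrays, beside 3.38% of all genes. Eif2ak2 was the exception, with 0.20 at 7 h and 0.30 at 21 h.

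Over the 0, 2, 7 and 21 h arrays Ifi204 had the highest mean log ratio, 1.20 ± 0.22 (SD over these 4 arrays, which are different times). Next came Oasl2 (0.99 ± 0.15), Oas1a (0.92 ± 0.36) and Rsad2 (0.87 ± 0.17). Ifit1 (0.76 ± 0.19) was followed by Ifi35 (0.44 ± 0.16) and Eif2ak2 (0.42 ± 0.20). The step of 0.32 from Ifit1 to Ifi35 was wider than the SD of either gene. The other 5 neighbours in the order lay closer to each other than the larger of their SDs. These SDs hold the change over time, so they are no error of a gene's level. The median range of the antiviral genes over the 4 arrays was 0.42, beside 0.20 for all genes and 0.35 for the 760 genes at least 2-fold over embryo at 0 h. Their directions differed from gene to gene.

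**Figure D2:**
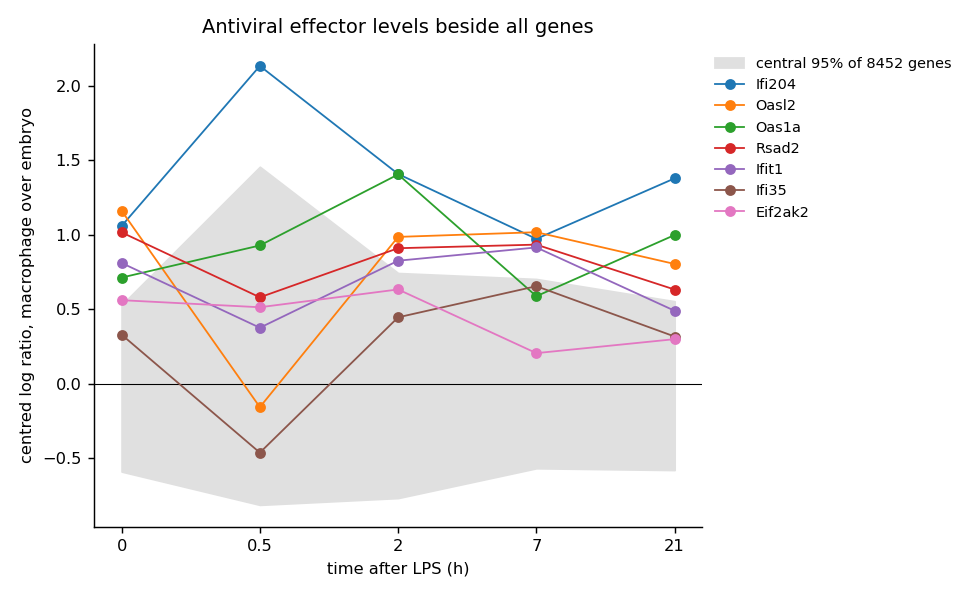
Centred log ratio of macrophage over embryo (y axis, log units read as base 10) of the 7 genes on each of the 5 arrays (x axis, time after LPS in hours), with the central 95% of 8452 genes in grey. At 0 h 6 of the 7 genes lie above the grey band, and at 0.5 h Oasl2 and Ifi35 lie below 0.

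Among the genes whose products bind viral RNA or act on viral replication, Ifit1 encodes a protein that binds viral RNA with foreign cap ends and keeps it from being translated. Its probe 12305 read 0.87 before LPS, then 0.12, 0.95, 0.92 and 0.53 at 0.5, 2, 7 and 21 h. Its probe 12354 read 0.75, 0.62, 0.70, 0.90 and 0.45 at the same times. Both probes were lowest at 21 h among the arrays other than 0.5 h, and there they lay 0.08 apart. At 21 h the gene was below 0 h by the size rule, with a mean log ratio of 0.49 at 21 h against 0.81 at 0 h, a difference of -0.32 ± 0.03 (SD over 2 probes). That difference ranged from -0.53 to -0.23 under the alternatives that kept the 0 h baseline. It was short of the size rule with the running median over 400 probe numbers removed (-0.23) and with the probe of highest ratio (-0.298). At 2 h (0.02 ± 0.09) and 7 h (0.10 ± 0.07) the gene differed by less than the size rule.

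Rsad2 encodes viperin, a radical SAM enzyme that makes a nucleotide which stops viral RNA synthesis. Probe 12355 read 1.11 before LPS, then 1.18, 0.88, 1.07 and 0.36 at 0.5, 2, 7 and 21 h. Probe 14280 read 0.92, -0.03, 0.94, 0.79 and 0.90 at the same times. The probes disagreed most at 0.5 h, by 1.21, and again at 21 h, by 0.54, where 1 probe was low and the other was not. The gene mean at 21 h was lower than at 0 h by the size rule, with a difference of -0.38 ± 0.51 (SD over 2 probes), so the spread between probes exceeded it. Probe 14280 alone differed by -0.02 and probe 12355 by -0.74. Probe 12355 has the number next to probe 12354 of Ifit1, which differed by -0.30 at 21 h, while the 274 gene probes numbered around them had a median difference of -0.03. At 2 h (-0.11 ± 0.17) and 7 h (-0.08 ± 0.07) the gene stayed within the size rule.

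Oas1a and Oasl2 belong to the oligoadenylate synthetase family, whose enzymes sense double-stranded RNA and make short adenylate chains that activate RNase L. The 1 probe of Oas1a read 0.71 before LPS, then 0.93, 1.40, 0.59 and 0.997 at 0.5, 2, 7 and 21 h. It was highest at 2 h, where it stood 0.69 above 0 h, or 4.92-fold on base 10, at percentile 99.3 of all genes, and 0.29 above it at 21 h, within the size rule. The 2 h difference was 0.36 after quantile normalization and 0.33 after loess, still past the size rule. The mouse genome holds several close Oas1 genes, and whether their RNA also bound this probe was not tested. For Oasl2, probe 12619 read 1.15 before LPS, then -0.05, 1.23, 1.22 and 1.26 at 0.5, 2, 7 and 21 h. Probe 15814 read 1.17, -0.27, 0.74, 0.81 and 0.34 at the same times. The Oasl2 probes lay within 0.01 of each other at 0 h and were 0.92 apart at 21 h. Probe 12619 showed almost the same ratio at 0, 2, 7 and 21 h, whereas probe 15814 was lower at the 3 later times. The gene mean differed from 0 h by -0.18 ± 0.35, -0.14 ± 0.29 and -0.36 ± 0.66 at 2, 7 and 21 h (SD over 2 probes), each within its own spread; taking the probe of highest ratio turned the 21 h difference to 0.11.

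Eif2ak2 encodes PKR, a kinase that is activated by double-stranded RNA and shuts down translation initiation. Probe 11451 read 0.45 before LPS, then 0.86, 0.55, 0.39 and 0.16 at 0.5, 2, 7 and 21 h. Probe 12329 read 0.67, 0.17, 0.72, 0.02 and 0.44 at the same times. At 21 h both probes were lower than at 0 h by a similar amount, with a mean difference of -0.26 ± 0.04 (SD over 2 probes), short of the size rule. At 7 h the mean was past it, at -0.36 ± 0.42, but probe 12329 accounted for most of this with -0.65, beside -0.06 for probe 11451.

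Ifi204 encodes a nuclear DNA-binding protein of the interferon-inducible PYHIN family, which takes part in sensing DNA and in macrophage differentiation. Its 1 probe read 1.06 before LPS, then 2.13, 1.41, 0.97 and 1.38 at 0.5, 2, 7 and 21 h. Whether RNA of other PYHIN genes also bound this probe was not tested. The ratio was the third highest of all genes at 21 h (the third lowest, were it the other way round). It was past the size rule upwards at 2 h (0.35) and 21 h (0.32), and at 7 h it differed by -0.09. The 2 h difference was -0.24 after quantile normalization and -0.10 once a trend on the mean ratio had been taken out. The 21 h difference lay between 0.22 and 0.42 under the alternatives that kept the 0 h baseline. It was short of the size rule after loess (0.22) and with the running median over 400 probe numbers removed (0.25).

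Ifi35 encodes a leucine zipper protein that binds the interferon-inducible protein Nmi. Probe 7813 read 0.48 before LPS, then -0.30, 0.48, 0.76 and 0.43 at 0.5, 2, 7 and 21 h. Probe 9299 read 0.18, -0.63, 0.41, 0.55 and 0.20 at the same times. Both probes were highest at 7 h and close to the 0 h ratio at 21 h. The 7 h difference was 0.33 ± 0.07 (SD over 2 probes), and it ranged from 0.20 to 0.38 under the alternatives that kept the 0 h baseline. With the running median over 400 probe numbers removed it was 0.24, short of the size rule. The gene probes numbered around probes 7813 and 9299 had median 7 h differences of 0.09 and 0.10. Nmi itself, on 1 probe, was at -0.04 at 0 h and differed from 0 h by -0.06, -0.19 and -0.13 at 2, 7 and 21 h.

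**Figure D3:**
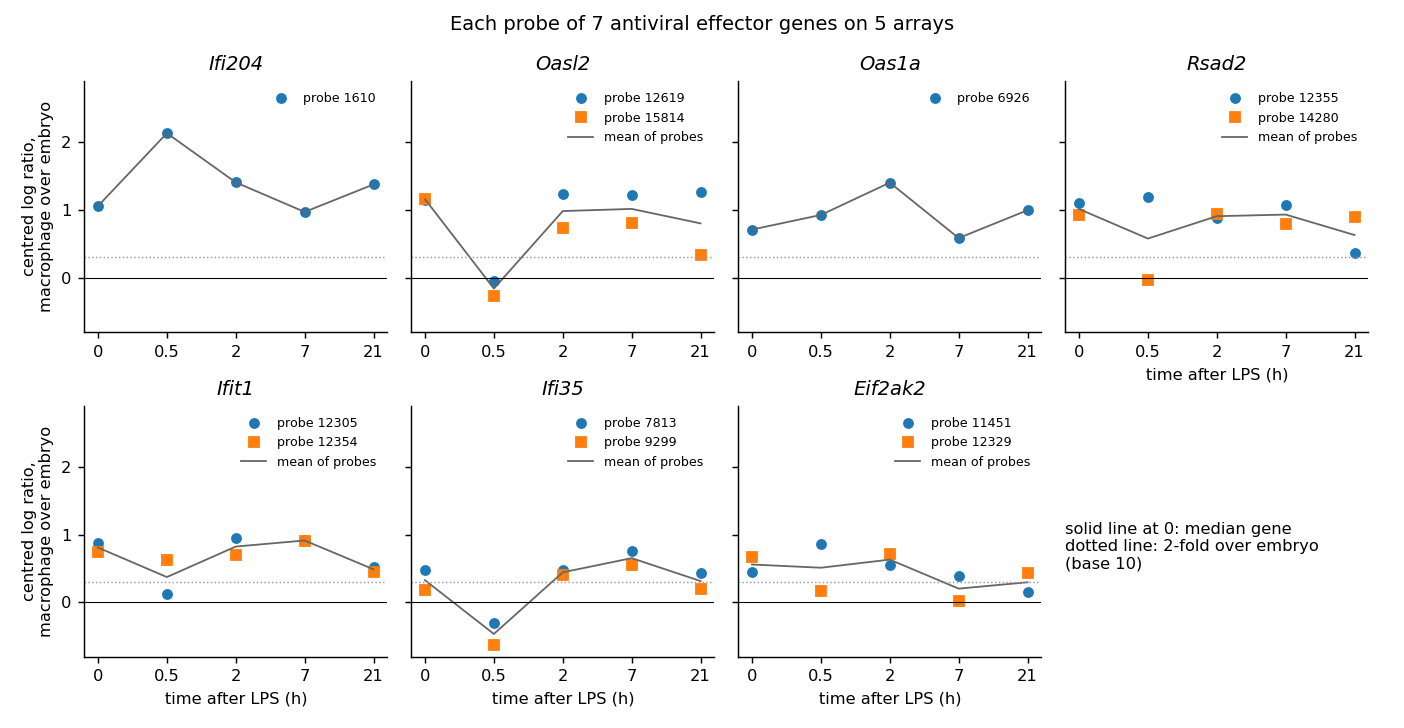
Centred log ratio of macrophage over embryo (y axis) for each of the 12 probes on the 5 arrays (x axis, hours after LPS), with the mean of a gene's probes as a line. The probes of Ifit1 lie 0.02 apart at 7 h, and those of Oasl2 lie 0.92 apart at 21 h.

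With the main processing, the 7 genes were not all on the same side of 0 h at any later time. At 0.5 h all 7 were lower by the size rule after quantile normalization and after loess. Whether the genes moved together was not tested. At 2 h, Oas1a and Ifi204 were higher than at 0 h by the size rule, Ifi204 with the opposite sign after quantile normalization (-0.24) and loess (-0.10). None was lower, beside 4.24% of all genes higher and 2.58% lower. After quantile normalization 1 was higher and 3 were lower at 2 h, and after loess 1 and 2. The median difference of the 7 was 0.07, beside -0.01 for all genes, and -0.07 with the arrays scaled to one median absolute deviation. At 7 h Ifi35 was higher and Eif2ak2 lower, beside 3.35% and 1.4% of all genes, with a median of -0.09 beside 0.02. The 7 h counts changed with the processing, to 1 higher and 5 lower after quantile normalization (median -0.51), 0 and 4 after loess (median -0.35) and 0 and 0 with the probe of highest ratio. The share of all genes was not counted under these alternatives, so their counts are no result about the antiviral genes. At 21 h Ifi204 was higher and Ifit1, Rsad2 and Oasl2 lower, beside 4.33% and 4.69% of all genes, with a median of -0.26 beside 0.00. These calls also changed with the processing. Ifi204 was short of the size rule after loess (0.22), and Ifit1 with the running median over 400 probe numbers removed (-0.23). Oasl2 was at 0.11 with the probe of highest ratio. All of these differences share the 0 h array.

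Genes with high ratios at 0 h gave a different background from all genes. Of the 760 genes at least 2-fold over embryo at 0 h, which include the 7, 31.3% were lower at 21 h and 2.76% higher, with a median difference of -0.14. Read against that share, the 3 of 7 that were lower are not a result about the antiviral genes as a group. At 2 h 14.1% of the 760 were higher and 5.79% lower, and at 7 h 12.6% and 5.26%. The 2 h array had the wider spread of ratios (SD over genes 0.36 at 2 h against 0.27 at 0 h), and 3 of the 7 macrophage markers were past the size rule upwards there, Fcgr1 (0.53), Fcer1g (0.40) and Laptm5 (0.32). With each array scaled to one median absolute deviation, the 2 h difference was 0.49 for Oas1a and 0.07 for Ifi204, and 2 of the 7, Rsad2 (-0.36) and Oasl2 (-0.47), were lower. For that scaling no share of all genes was counted. With the 0.5 h array as baseline Oasl2 was 0.96 higher at 21 h.

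**Figure D4:**
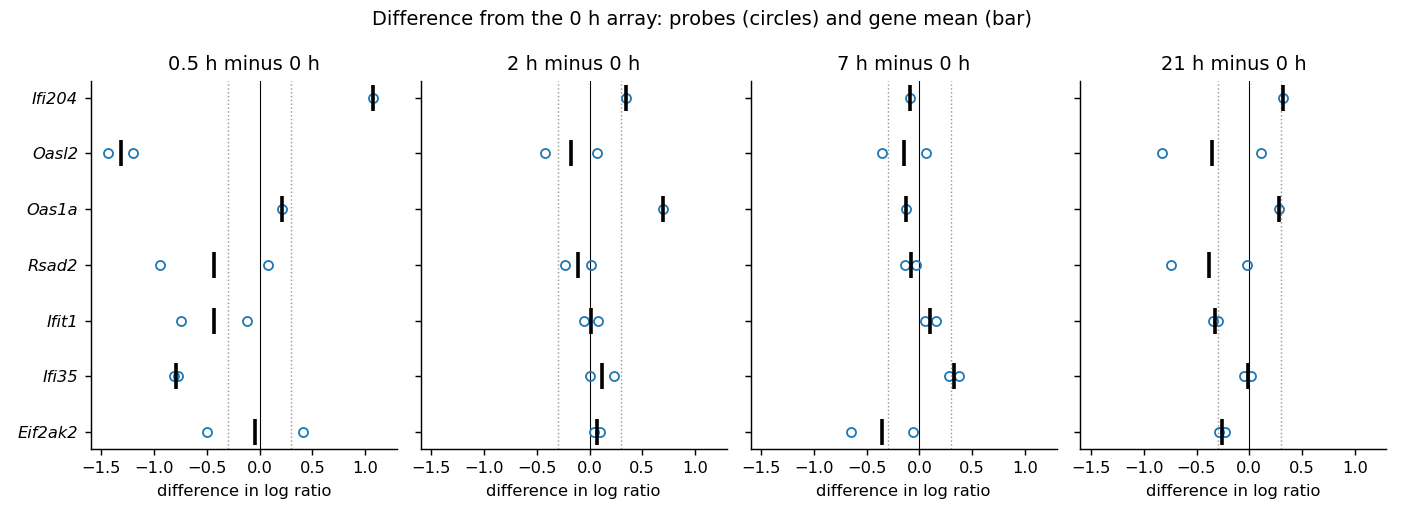
Difference in centred log ratio from the 0 h array (x axis) for each gene at 0.5, 2, 7 and 21 h, with circles for probes, a bar for the gene mean and dotted lines at the 2-fold size rule. Ifit1 lies just past the lower line at 21 h on its mean with both probes close together, while the probes of Oasl2 and Rsad2 lie far apart at that time.

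The 0.5 h array stood apart from the others. Its correlation with the 0 h array was 0.49 over the 18039 probes with a value on every array, against 0.88, 0.85 and 0.77 for the 2, 7 and 21 h arrays (Pearson's r over probes, which are no replicates). By the size rule Ifi204 was higher at 0.5 h (1.07) and Oasl2 (-1.32 ± 0.17), Ifi35 (-0.79 ± 0.02), Rsad2 (-0.44 ± 0.73) and Ifit1 (-0.43 ± 0.44) were lower (SD over 2 probes), beside 19.9% of all genes higher and 10.6% lower. Of the 760 genes at least 2-fold over embryo at 0 h, 21.7% were higher and 27.6% lower at 0.5 h. At 0.5 h Ifi204 was at -0.40 after quantile normalization and -1.52 after loess, and Rsad2 at 0.05 with its probe of highest ratio. Of the 10 embryo markers 7 were also higher and 2 lower on this array. Oas1a differed by 0.22 and Eif2ak2 by -0.05 ± 0.64. Both probes of Oasl2 and both of Ifi35 were lower at 0.5 h than on any other array.

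The 0.5 h differences are set here beside the correlation of the 0.5 h and 0 h arrays around each probe number. The limit of 0.7 was chosen after the data had been seen. Over the 400 probes with neighbouring numbers, the correlation of the 0.5 h array with the 0 h array was at least 0.7 around 3 of the 12 antiviral probes, those of Oas1a (0.79) and Ifi204 (0.71) and probe 11451 of Eif2ak2 (0.78). All 3 were higher at 0.5 h than at 0 h, by 0.22, 1.07 and 0.41. Around the other 9 probes it was between 0.05 and 0.36, and their differences ran from -1.44 to 0.08 with 7 past the size rule downwards. Over all genes' probes in such stretches of low correlation 24.6% were higher and 12.9% lower, and in stretches of high correlation 11.0% were higher and 11.3% lower. Eif2ak2 had 1 probe in each kind of stretch, and these differed from 0 h in opposite directions. At 2 h every one of the 12 probes lay in a stretch with a correlation of at least 0.7, from 0.76 to 0.97. At 7 h 11 of them did, and at 21 h 10, the exceptions being probe 7813 of Ifi35 at both times and probe 9299 of Ifi35 at 21 h. What the probe number stands for on the slide was not stated in the labels, and its part in these values was not tested.

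**Figure D5:**
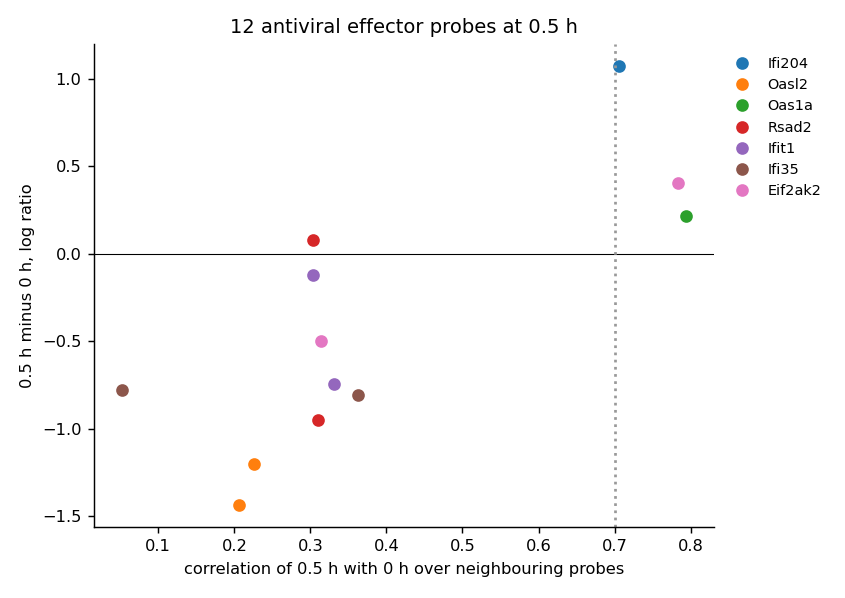
Difference between 0.5 h and 0 h (y axis, log ratio) of the 12 antiviral probes against the correlation of the 2 arrays over 400 neighbouring probe numbers (x axis, dotted line at 0.7). The 3 probes right of the line are higher at 0.5 h, and 8 of the 9 left of it are lower.

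Paired probes existed for 5 of the 7 genes. Their median gap in log ratio was 0.18, 0.50, 0.17, 0.28 and 0.28 at 0, 0.5, 2, 7 and 21 h, beside 0.18, 0.35, 0.21, 0.20 and 0.20 for the 1826 genes with 2 probes. In the difference from 0 h, both probes had the same sign in 3, 2, 4 and 3 of the 5 genes at 0.5, 2, 7 and 21 h, beside 52.7%, 52.9%, 52.1% and 50.1% of all 1826 pairs. Both probes moved the same way by over 0.2 in Oasl2 and Ifi35 at 0.5 h, downwards, and in Ifi35 at 7 h, upwards. At 21 h they did so in Ifit1 and Eif2ak2, downwards. The share of all pairs past 0.2 was not counted, so this is no result about the antiviral genes.

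Other interferon-inducible genes, 30 of 61 measured, had a median log ratio of 0.41 at 0 h, and 17 of them were at least 2-fold over embryo, beside 8.99% of all genes. At 0.5 h 6 were higher and 3 lower, beside 19.9% and 10.6% of all genes. At 2 h 5 were higher and none lower, beside 4.24% and 2.58% of all genes and 14.1% and 5.79% of the 760 genes at least 2-fold over embryo at 0 h. These were Irf7 (0.72 ± 0.45, SD over 2 probes), the transcription factor that amplifies interferon production, the immunoproteasome subunits Psmb9 (0.43 ± 0.45, 2 probes) and Psmb10 (0.33), and the GTPases Gbp2 (0.40) and Igtp (0.33 ± 0.25, 2 probes). At 7 h Psmb9 (0.41) and Gbp2 (0.35) were higher, beside 3.35% of all genes and 12.6% of the 760. At 21 h Ifi27l2a (0.49) and Stat2 (0.31), a partner in the interferon-activated transcription complex, were higher, and Cxcl10 (-0.45), Psmb9 (-0.38) and Gbp2 (-0.30) lower, beside 4.33% and 4.69% of all genes and 2.76% and 31.3% of the 760. The median differences of the list were 0.05, 0.06 and 0.03 at 2, 7 and 21 h. Of the relatives of Ifit1, Ifit3 differed by 0.24 and Ifit2 by 0.13 at 21 h, each on 1 probe and within the size rule.

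Of the 19 measured partners in the 4 lists that follow, 3 were past the size rule at 2, 7 or 21 h, 2 of them higher at 7 h, where 3.35% of all genes were, and 1 at 21 h, where 4.33% were. At 0.5 h 4 were past it, where 19.9% of all genes were higher. Those 4 were Ddit3 (1.17), a stress-induced transcription factor, Prkra (0.32 ± 0.26, SD over 2 probes), Ptpn6 (1.35), a tyrosine phosphatase, and Ifnar2 (0.47 ± 0.29, SD over 3 probes), all higher. In the oligoadenylate pathway 2 of 10 listed genes were measured, Oasl1 (0.14 at 21 h) and Abce1, an inhibitor of RNase L (0.02 ± 0.16 at 21 h, SD over 3 probes), and neither was past it at any time. In the PKR pathway 9 of 15 were measured and none was past it at 2, 7 or 21 h. There Prkra, an activator of PKR, differed by 0.18 ± 0.17 (SD over 2 probes) at 21 h and Dnajc3, an inhibitor of PKR, by -0.02 ± 0.14 (SD over 4 probes). Of interferon ligands, receptors and kinases 5 of 19 were measured, with Ifnar2, a subunit of the type I receptor, at 0.23 ± 0.65 at 21 h (SD over 3 probes). Jak1, a kinase of that receptor, was higher at 21 h by 0.36 ± 0.02 (SD over 2 probes), and Ptpn11, a tyrosine phosphatase, at 7 h by 0.36 ± 0.41 (2 probes). Among sensors upstream of interferon 3 of 22 were measured, and Tbk1, the kinase that activates Irf3, was higher at 7 h by 0.39 on 1 probe while Irf3 differed by 0.10.

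By mean absolute difference of centred log ratio over the 0, 2, 7 and 21 h arrays, the gene most like Oas1a was Irf7 (0.09), with 0.76, 1.48, 0.82 and 1.02 on those arrays. Steap3 (0.12) came next. For Ifi204 the closest were Laptm5 (0.06) and Lcp1 (0.09), both leukocyte genes. Rsad2 lay closest to Syk (0.05), a kinase of immune receptor signalling, and Oasl2 to H2-D1 (0.08), a class I histocompatibility gene. The closest to Ifit1 was Arpin (0.07), to Eif2ak2 Ino80e (0.04) and to Ifi35 Utp6 (0.02). No antiviral effector had another as its nearest gene. With only 7 such genes among 8452 this was likely whatever their patterns, and no rank by chance was computed. The closest other antiviral gene was the third nearest gene for Oasl2 (Rsad2, 0.12), the fourth for Rsad2 (Ifit1, 0.11), the 7th for Ifit1, the 16th for Ifi204, the 43rd for Oas1a, the 661st for Eif2ak2 and the 981st for Ifi35. By the change from 0 h over 3 arrays, Ifi35 lay closest to Arg1 (0.01), Ifi204 to Igf1 (0.03) and Oas1a to Cinp (0.05), then Egr2 (0.05). Rsad2 lay closest to Wiz (0.01), Oasl2 to 1700006J14Rik (0.02), Ifit1 to Poc1b (0.02) and Eif2ak2 to Dsn1 (0.02). By that measure the closest other antiviral gene ranked 28th for Oas1a, 41st for Rsad2, 43rd for Oasl2, 345th for Ifi204, 953rd for Eif2ak2, 1124th for Ifit1 and 5488th for Ifi35.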

How the data were processed

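The authors deposited a log ratio for each probe on each array, treated here as log10; per the labels, the indirect amino-allyl method was used to label cDNA with Cy3. The log base, the authors' centring and the direction are not stated. Macrophage over embryo was read from the markers and is likely only. Base 10 is an assumption that no value shown here settles, and every fold and the size rule rest on it. Deposited medians ran from 0.00 (7 h) to 0.07 (0.5 h). The scanner and the normalization are not stated in the labels, signal over background is unknown, and precision is limited by the number of arrays. Among the 19828 probes, 14759 carried 1 symbol, 170 several and 4899 none here. Of the 14759, 14628 had a gene identifier found in RefSeq (GRCm38.p6) and took the symbol given there, changed or not. Probes of a gene were averaged, arrays were centred on the median of the 8452 genes measured on every array, and differences from 0 h were set against a 2-fold size rule. With 1 array a group, nothing was tested. Members, lists and rules (all 7 members, list genes past the size rule at 2, 7 or 21 h or the 2 highest and 2 lowest at 21 h, and the 2 nearest genes by mean absolute difference, of which the text prints examples) were chosen with earlier results of these data known. Nmi, Ifit2, Ifit3, Dnajc3, Ddit3, Ptpn6, Irf3 and the markers were named after their values were seen. Probe averaging, centring and the difference from 0 h were tested on simulated data with known changes at 2 h. The other steps were not tested in this way. Python 3.11.15, numpy 2.4.6, pandas 2.3.3, statsmodels 0.14.6 and matplotlib 3.10.9 were used.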

Additional observations from a re-analysis of the deposited data

How the results depend on the processing

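No paired analysis was possible because each group held 1 array. The counts of antiviral effectors past the size rule are small and moved with most choices, and the causes were not tested. No count changed without centring, with centring over probes or with the median probe. The same held with values needed only on the arrays compared, or with the 0.5 h array left out. At 21 h 4 were lower after quantile normalization, after loess and after scaling to one median absolute deviation. Under none of the alternatives in this section was the share of all genes counted, so no count is a result about the antiviral genes. After quantile normalization 0 were higher and 7 lower at 0.5 h, 1 and 3 at 2 h, 5 lower at 7 h and 2 higher at 21 h, with median differences of -0.24 at 2 h and -0.51 at 7 h and medians against embryo of 1.21 at 0 h and 0.92 at 21 h; Ifi204 was at -0.40 at 0.5 h and -0.24 at 2 h. Scaled to one median absolute deviation, 0 were higher at 0.5 h, and 1 was higher and 2 lower at 2 h. With the loess trend removed, 0 were higher and 7 lower at 0.5 h, 1 and 2 at 2 h, 0 and 4 at 7 h and 0 higher at 21 h, with medians of -1.23 at 0.5 h, -0.10 at 2 h and -0.35 at 7 h; Ifi204 was at -1.52 at 0.5 h and -0.10 at 2 h. With the running median over 400 probe numbers removed, 2 were higher at 0.5 h and 0 at 7 h.

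Against the 0.5 h array, 5 were higher and 1 lower at 2 h, 4 and 3 at 7 h and 2 and 1 at 21 h, with medians of 0.45, 0.35 and 0.0701; Ifi204 was at -0.73 at 2 h and -0.75 at 21 h, and at 21 h Ifit1 was at 0.11, Rsad2 at 0.0522 and Oasl2 at 0.96. With the probe of highest ratio, 2 were higher and 2 lower at 0.5 h (median 0.0536, which is Rsad2's value), 0 and 0 at 7 h, and 1 was lower at 21 h (median -0.0448, Oasl2 0.11). By construction, a wider rule lowers the counts. Read as base 2, 1 was lower at 0.5 h, 0 were higher at 2 h, and 0 were past the rule in either direction at 7 and 21 h; as base e, 2 were lower at 0.5 h and the same counts of 0 held at 2 h (higher), 7 h and 21 h. A 1.5-fold rule gave 2 higher at 0.5 h and 2 at 21 h. A 3-fold rule gave 2 lower at 0.5 h, 1 higher at 2 h, and 0 in either direction at 7 and 21 h. Over the probes in stretches where the 0.5 and 0 h arrays correlated at 0.7 or more, an alternative chosen after seeing the data, 2 were higher and 0 lower at 0.5 h, with a median of 0.41.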
